A study of Bos taurus with 16 samples.

Results

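The interleukin-1 family ligands and receptors measured here were IL1A, IL1B, IL18, IL33, IL1RN, IL37, IL18BP, IL1R1, IL1RAP and IL1R2. Members were the non-control probes of a bovine 1-colour oligonucleotide array whose gene name was one of these 10 symbols. That rule found 20 probes of 9 genes, and IL37 was found as 1 probe under its older symbol, IL1F7, which gave 21 probes of 10 genes among 46615 probes in all. The samples came from multiparous Holstein-Friesian dairy cows at 45 to 55 days postpartum, of which 4 had subclinical endometritis (SCE: cows 718, 833, 836 and 846) and 4 were healthy (cows 841, 850, 877 and 883). SCE is an inflammation of the uterine lining without outward signs, diagnosed here on histology. Each cow gave 1 array of circulating white blood cells (WBC) and 1 array of an endometrial biopsy, so each of the 4 groups (WBC healthy, WBC SCE, endometrium healthy, endometrium SCE) held 4 cows. The biopsies were taken across the oestrous cycle, with luteal and follicular cows in both sets, and the stage was not tied to single cows here. The sets were not balanced for stage: the SCE cows were mostly luteal, and the healthy cows were split evenly. The authors reported that the stage affected several endometrial transcripts in healthy cows.

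IL1A, IL1B, IL18 and IL33 are the agonist ligands among these members. IL1A and IL1B bind IL1R1, which recruits the shared accessory chain IL1RAP and signals through MYD88 and the IRAK kinases to NF-kappa-B. IL1RN is a secreted antagonist that occupies IL1R1 without recruiting IL1RAP, IL1R2 is a decoy receptor that binds ligand without signalling, IL18BP captures IL18, and IL37 dampens inflammation. IL1B and IL18 are cut to their active form by caspase-1 in the inflammasome, whereas IL33 is a nuclear alarmin of barrier and stromal cells that is released on damage. In the uterus these cytokines are known as early signals of the postpartum clearance of bacteria.

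The probes are 60-base oligonucleotides, and 4 sets of them are shown because the values of their genes differed between probes. Positions are those of the array design on the build HGSC Btau_3.1, and the annotation of exons was not used here. The 4 IL1B probes all lay on chromosome 11, minus strand, within 892 bases. The lead probe of a gene, meaning the probe with the highest mean log2 signal over the 16 arrays, was A_73_P040131 for IL1B (chr11:48249271-48249330). Its capitals mark an 18-base run that also occurs, on the opposite strand, in a probe without a gene name, and 4 probes of other genes or transcripts shared 15 bases or more with it. The capitals of A_73_P108091 and A_73_P111451 mark a run of 50 bases that both hold, so these probes read nearly the same target.

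IL1B A_73_P040131: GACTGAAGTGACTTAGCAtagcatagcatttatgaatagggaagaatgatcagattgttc
IL1B A_73_110556: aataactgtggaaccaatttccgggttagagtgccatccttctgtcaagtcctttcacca
IL1B A_73_P108091: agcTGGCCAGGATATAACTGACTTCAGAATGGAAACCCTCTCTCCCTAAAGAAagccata
IL1B A_73_P111451: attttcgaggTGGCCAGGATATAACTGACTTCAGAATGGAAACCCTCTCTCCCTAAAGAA

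The 2 IL18BP probes (chr15:51137488-51137547, plus strand, and chr15:51137459-51137518, minus strand) overlapped on opposite strands. Their capitals mark the 31 bases that are the reverse complement of each other, so the pair cannot both match the same single-stranded transcript.

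IL18BP A_73_119324: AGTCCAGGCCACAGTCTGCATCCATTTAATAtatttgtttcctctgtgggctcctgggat
IL18BP A_73_P128541: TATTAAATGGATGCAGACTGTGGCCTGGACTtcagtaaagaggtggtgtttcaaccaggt

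The IL1R1 probes lay on chromosome 11, plus strand, within 3067 bases, with the lead probe last (chr11:7135737-7135796) and the second probe first (chr11:7132730-7132789). The capitals of the lead probe mark AATAAA, the letters of the usual polyadenylation signal, which 9.52% of all probes held on the probe strand and 3.54% on the opposite strand.

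IL1R1 A_73_121114: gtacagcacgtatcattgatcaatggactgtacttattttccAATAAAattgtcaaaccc
IL1R1 A_73_114854: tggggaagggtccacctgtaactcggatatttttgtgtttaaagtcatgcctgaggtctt

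The IL37 probe (chr11:48326773-48326832, plus strand) is shown because the array held the same 60 bases a second time, as a custom probe named by a gene identifier of Ensembl, so the same target was read from a second probe.

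IL37 A_73_P082556: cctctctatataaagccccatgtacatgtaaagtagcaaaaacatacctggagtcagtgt

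All values below are log2 median signals after quantile normalization over the 16 arrays. The median raw signal was 133 to 258.5 on the WBC arrays and 304 to 374 on 7 of the 8 endometrium arrays, but 115.5 on the endometrium array of SCE cow 833, which therefore stood apart. The summed signal of 4 endothelial marker genes was 60670 on that array against 6150 to 13440 on the other endometrium arrays, that of 3 erythroid markers was 94980 against 21650 to 36810, and that of 6 stromal markers was 65450 against 149700 to 388100. The tissue labels were borne out by 7 neutrophil markers (157200 to 293700 in WBC, 5771 to 13020 in endometrium) and by the summed stromal markers (16790 to 22460 in WBC). Taken singly, 4 of the 6 stromal markers were higher in endometrium (limma's TREAT test, adjusted). COL1A1 did not pass (0.55, log2, endometrium minus WBC, adjusted p = 0.127), and DCN was higher in WBC (-0.60, adjusted p = 0.00551). The summed signals of 6 epithelial markers overlapped between the tissues (35180 to 95660 in WBC, 31300 to 77290 in endometrium), but the single markers were split. EPCAM, KRT18 and CDH1 were higher in endometrium (differences 6.02, 5.97 and 4.14). The probes of KRT8, KRT19 and CLDN4 read higher in WBC (differences -1.69, -1.30 and -1.40). Each marker was read on its brightest probe, and that of KRT19 had means of 15.90 (healthy) and 15.84 (SCE) in WBC. Whether the probes of these markers and of DCN read those transcripts alone was not tested. In such bulk samples, fewer cells of a type and less RNA per cell cannot be told apart.

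The first comparison asked where the family was expressed. IL1B, IL1RN and IL1R2 were higher in WBC, and IL33 and IL1A were higher in endometrium. IL18, IL18BP, IL1RAP and IL37 did not pass the test, and the probes of IL1R1 disagreed. In limma's TREAT test against a fold of 1.2, adjusted by Benjamini-Hochberg over all probes, 3 of the 21 probes were higher in endometrium and 10 were higher in WBC, that is 13 probes of 6 genes. Over all probes tested, 22.7% were higher in endometrium and 31.2% were higher in WBC, 53.9% in all. The share of member probes that passed in either direction was near that of the array. By direction it was larger than that of the array in WBC and smaller in endometrium. The 10 probes higher in WBC include every IL1B and IL1RN probe, and probes of the same gene are not independent. All WBC arrays lay on one slide and all endometrium arrays on the other, and a tissue difference cannot be told apart from a slide difference. The median difference of all probes was -0.16 (log2, endometrium minus WBC), and it was 0.35 when each tissue was normalized separately. Under that scaling 8 member probes were higher in endometrium and 9 in WBC (41.3% and 10.8% of all probes).

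**Figure D1:**
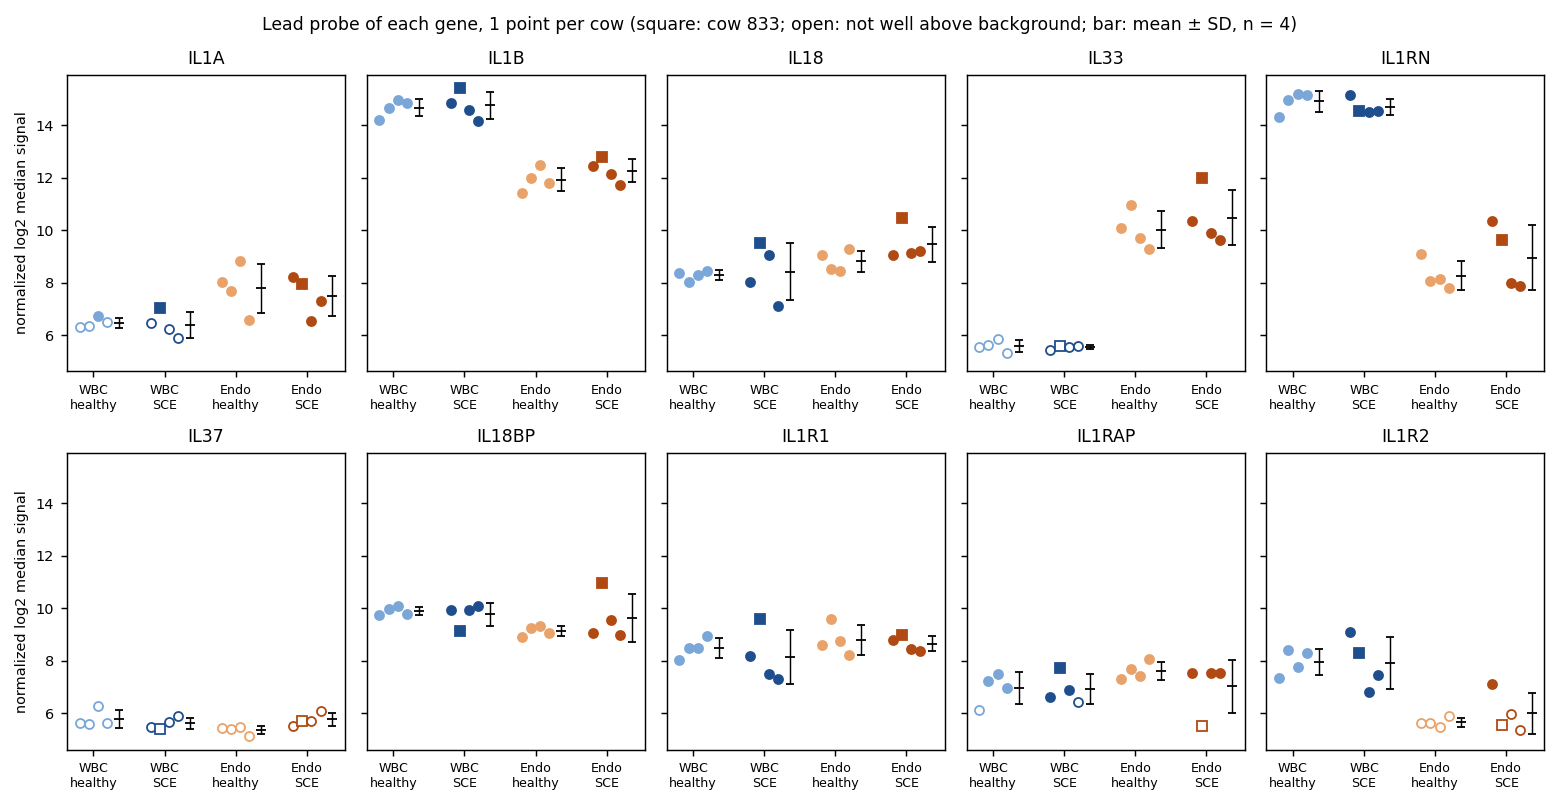
Normalized log2 median signal (vertical axis) of the lead probe of each of the 10 genes in the 4 groups, 1 point per cow, with cow 833 as a square, open points where the spot was not well above background, and bars for mean ± SD (n = 4). IL1B and IL1RN lie above 14 on all WBC arrays and below 13 on all endometrium arrays, IL33 shows the opposite pattern, and SCE and healthy cows overlap within each tissue for every gene except IL37 in endometrium.

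Among the agonists, IL1B was higher in blood on all its probes. Its lead probe read 14.21, 14.64, 14.96 and 14.84 in WBC of healthy cows 841, 850, 877 and 883, and 14.85, 15.42, 14.59 and 14.16 in WBC of SCE cows 718, 833, 836 and 846. In endometrium it read 11.42, 12, 12.47 and 11.80 in the healthy cows and 12.45, 12.77, 12.13 and 11.72 in the SCE cows. Every WBC array was above every endometrium array, and the spread between cows of a group (SD 0.33 to 0.53) was small beside that gap. The difference was -2.61 (6.12-fold, SE 0.21, adjusted p = 4.38e-08 by limma). The other IL1B probes gave larger and smaller gaps in the same direction. These were -4.71 (SE 0.29) for A_73_110556, -2.66 (6.34-fold) for A_73_P111451 and -2.10 (4.27-fold) for A_73_P108091. No exact fold is given for A_73_110556, which in endometrium was well above background only on 3 healthy and 2 SCE arrays. Each of the 4 probes separated the tissues without overlap, as 21.6% of all probes did with WBC higher and 15.4% with endometrium higher.

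The 4 IL1B probes ranked the cows alike in WBC but not in endometrium. Over the 8 WBC arrays the correlations between probes were 0.92 to 0.98 (Pearson's r). Over the 8 endometrium arrays the lead probe and A_73_P108091 had r = 0.12, or -0.25 without cow 833, and the pair that shares 50 bases had r = 0.66, or 0.51 without her. A_73_110556 was well above background on all 8 WBC arrays, but in endometrium only on 5 of 8. In endometrium it read 6.11, 6.80, 6.64 and 6.21 in the healthy cows, and 7.45, 7.31, 6.08 and 6.11 in the SCE cows 718, 833, 836 and 846. Cows 718 and 833 were thus the highest on that probe, whereas on the lead probe cow 833 was the highest and cow 718 lay just under healthy cow 877. The readings of the other SCE cows lay among those of the healthy cows or under them on both probes.

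IL33 was measured in endometrium and stayed at background in blood. Its lead probe (chr8:40636934-40636993, minus strand) read 10.09, 10.95, 9.69 and 9.29 in endometrium of the healthy cows and 10.35, 11.98, 9.90 and 9.64 in that of the SCE cows. On the WBC arrays it read 5.32 to 5.85 and was not well above background on any of the 8. The signal was at least 22.3-fold higher in endometrium (measured difference 4.68, SE 0.29, adjusted p = 1.71e-09 by limma). The bound compares the mean of the bright tissue with the dimmest signal well above background on each array of the other, or with the probe's own signal where that was higher. The second IL33 probe was at least 6.51-fold higher in endometrium (difference 2.92), and over the 8 endometrium arrays the 2 probes had r = 0.97, or 0.92 without cow 833.

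IL1A varied widely between cows of the same group. In endometrium its lead probe read 8.03, 7.67, 8.83 and 6.58 in the healthy cows and 8.21, 7.95, 6.52 and 7.30 in the SCE cows, well above background in all 8. In WBC it was well above background on 2 of 8 arrays, at 6.71 in cow 877 and 7.05 in cow 833. The measured tissue difference was 1.204 (SE 0.30, adjusted p = 0.00728 by limma) although the tissues overlapped, and because 6 of the 8 WBC readings were not well above background no exact fold is given. The second IL1A probe was not well above background on any of the 16 arrays.

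IL18 was expressed in both tissues, at 8.44 to 9.27 in endometrium and 8.01 to 8.44 in WBC of the healthy cows. Its tissue difference of 0.79 (SE 0.31) gave an adjusted p of 0.0948 by limma. With the cow as a block the same difference had an adjusted p of 0.0264, with each tissue normalized separately it was 1.73 (adjusted p = 0.000245), and without cow 833 it was 0.81 (adjusted p = 0.0379). The call for IL18 therefore depended on these choices, while its direction was the same in each.

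Of the inhibitors, IL1RN was higher in WBC on all its probes. Its lead probe (chr11:48543380-48543439, plus strand) read 14.32, 14.95, 15.21 and 15.15 in WBC of the healthy cows and 15.14, 14.55, 14.52 and 14.53 in WBC of the SCE cows. In endometrium it read 9.07, 8.06, 8.14 and 7.78 in the healthy cows and 10.36, 9.62, 7.97 and 7.87 in the SCE cows. No endometrium array came near any WBC array. The difference was -6.19 (72.8-fold, SE 0.33, adjusted p = 2.06e-10 by limma). It was -4.97 (31.3-fold) on the second probe and at least 8.23-fold on the third, which was not well above background on any endometrium array.

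IL1R2, the decoy receptor, was measured in all 8 WBC samples and in 1 endometrium. In WBC it read 7.36, 8.43, 7.78 and 8.31 in the healthy cows and 9.10, 8.30, 6.83 and 7.44 in the SCE cows. In healthy endometrium it was not well above background on any array (5.47 to 5.88), a gap of at least 4.79-fold to healthy WBC (adjusted p = 0.000667 by limma). In SCE endometrium it was 7.11 in cow 718, the one array well above background, and 5.54, 5.98 and 5.37 in cows 833, 836 and 846. The measured difference over all cows was -2.11 (SE 0.31, adjusted p = 4.85e-05 by limma), against a tissue in which 7 of 8 readings were not well above background.

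IL18BP and IL37 did not separate the tissues. The lead IL18BP probe read 8.91 to 9.34 in healthy endometrium and 9.74 to 10.08 in healthy WBC, and its difference over all cows was -0.45 (SE 0.24, adjusted p = 0.352 by limma). That value hung on cow 833, whose endometrium was the highest (10.96) and whose WBC were the lowest (9.13): without her the difference was -0.77 (adjusted p = 0.000637). With each tissue normalized separately the sign turned, to 0.55. The second IL18BP probe, on the opposite strand, read 6.72 to 7.27 in endometrium and 6.87 to 7.26 in WBC, a difference of -0.11 (SE 0.10, adjusted p = 1 by limma). The IL37 probe was not well above background on any of the 16 arrays, so it gives no level in either tissue.

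The signalling receptor showed a contradiction between its own probes. The lead IL1R1 probe read 8.61, 9.59, 8.76 and 8.22 in endometrium and 8.04, 8.51, 8.50 and 8.94 in WBC of the healthy cows, a difference over all cows of 0.40 (SE 0.29, adjusted p = 0.48 by limma). The second probe, located upstream, read 7.31, 7.92, 7.51 and 7.06 in endometrium and 9.42, 8.79, 8.48 and 9.45 in WBC of the same cows. On that probe every WBC array was above every endometrium array, with a difference of -1.60 (3.03-fold, SE 0.20, adjusted p = 1.27e-05). The third probe went the same way by -0.76 (adjusted p = 0.0015). It was well above background on only 2 of 4 healthy and 0 of 4 SCE endometrium arrays. With each tissue normalized separately its difference was -0.21. In endometrium the lead and second probes ranked the arrays alike (r = 0.86), whereas in WBC they did not (r = -0.03, or 0.35 without cow 833). With each tissue normalized separately the lead probe was higher in endometrium by 1.33 (adjusted p = 0.00227) and the second probe was still lower there (-0.73), so the disagreement did not go away with the scaling.

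IL1RAP, the accessory chain, had a lead probe at 7.30 to 8.07 in healthy endometrium and 6.11 to 7.49 in healthy WBC. Its difference was 0.39 (SE 0.31, adjusted p = 0.516 by limma), and without cow 833, whose endometrium read 5.52, it was 0.78 (adjusted p = 0.018). The second IL1RAP probe differed by 0.11 (adjusted p = 0.958).

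**Figure D2:**
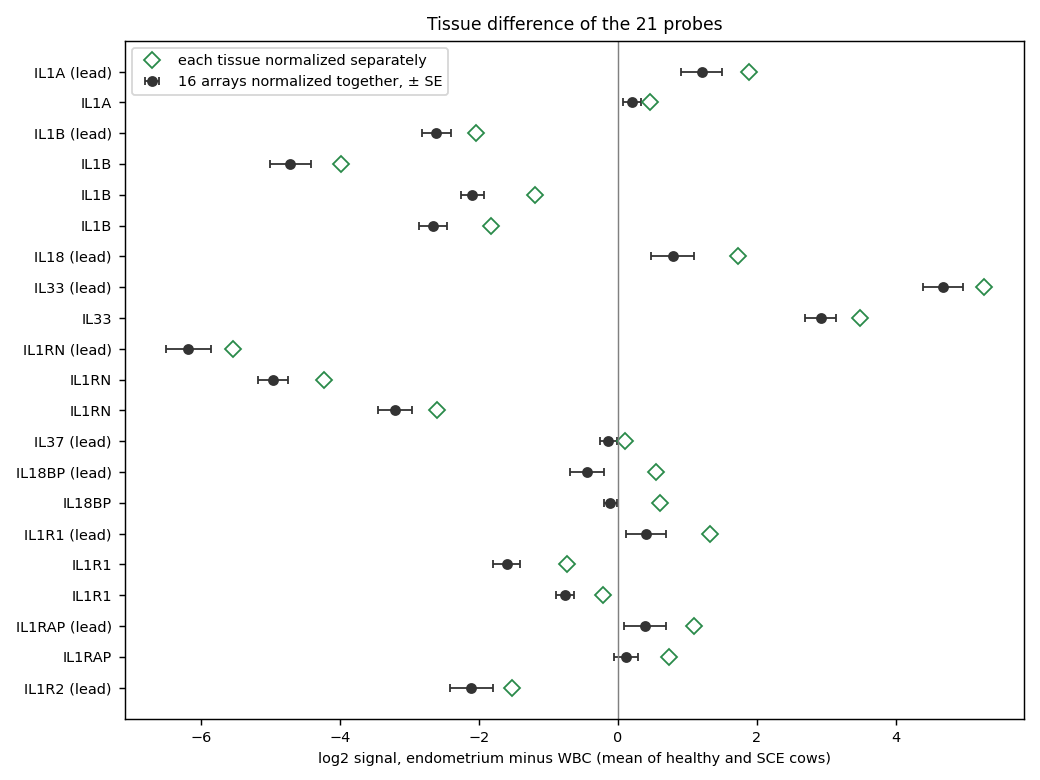
Endometrium minus WBC difference in log2 signal (horizontal axis, mean of healthy and SCE cows) of the 21 probes, with filled points and bars for the difference ± SE after normalization of the 16 arrays together and open diamonds after normalization of each tissue separately. All diamonds lie to the right of the filled points. IL1B, IL1RN and IL1R2 stay left of 0 and IL33 and IL1A right of 0 under both, while IL18BP and IL37 change side and the IL1R1 probes stand on both sides.

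The second comparison asked whether the family differed between SCE and healthy cows. No member passed in either tissue. In endometrium 0 of 21 probes passed limma's TREAT test at an unadjusted p of 0.05 (0.453% of all probes did) and 0 passed after adjustment (0% of all probes). In WBC 0 of 21 passed unadjusted (0.122% of all probes) or adjusted (0% of all probes). In endometrium 13 of the 21 differences were above 0 (49.1% of all probes), with a median of 0.19 against 0.00 over all probes. In WBC 7 of 21 were above 0 (48.1% of all probes), with a median of -0.05 against -0.01 over all probes. The arrays are 4 against 4 cows, so the exact permutation test cannot give a p under 0.029.

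**Figure D3:**
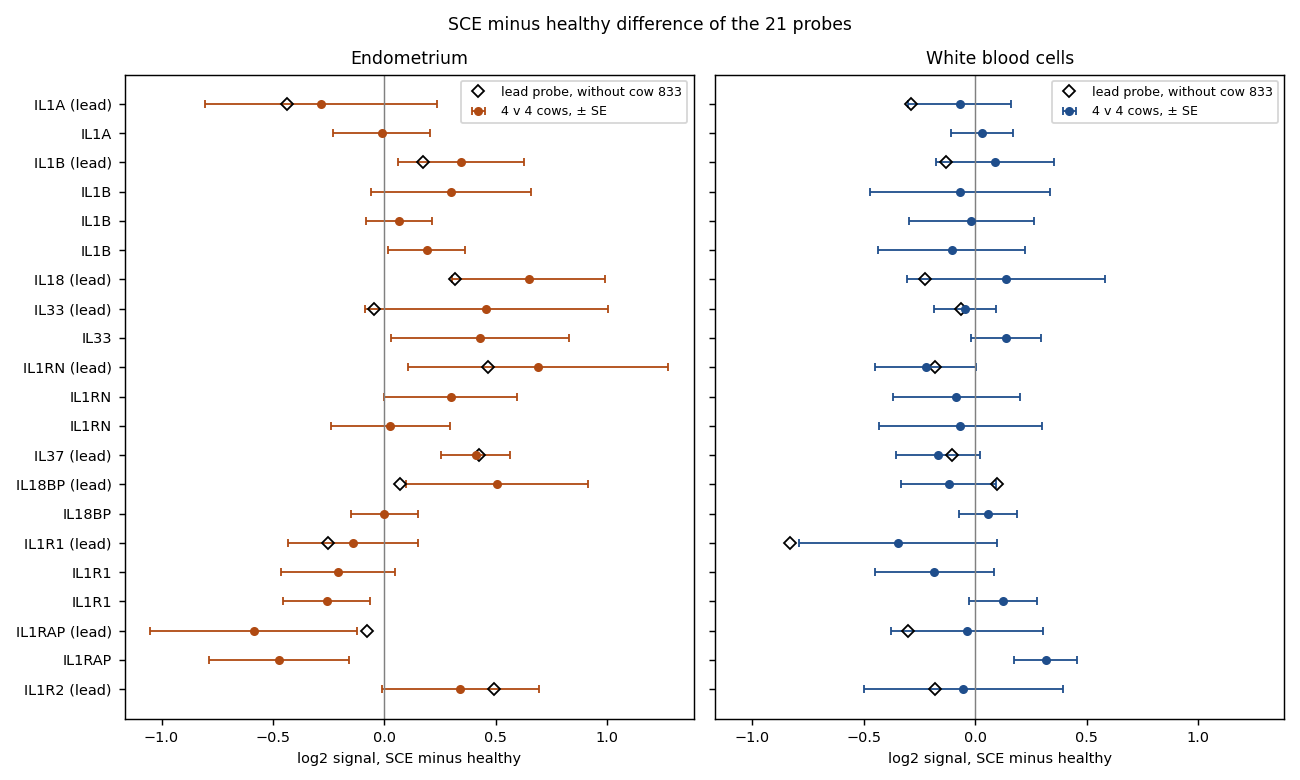
SCE minus healthy difference in log2 signal (horizontal axis) of the 21 probes in endometrium (left) and WBC (right), points with bars for ± SE over 4 against 4 cows, open diamonds for the lead probes without cow 833. In endometrium the diamonds of IL33, IL18BP and IL1RAP lie close to 0, at -0.05, 0.07 and -0.08, and in WBC the diamond of IL1R1 lies at -0.83.

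In endometrium the widest gaps among the lead probes were those of IL1RN and IL18. IL1RN was higher on average in SCE by 0.69 (1.61-fold, SE 0.58, adjusted p = 1 by limma, exact permutation p = 0.37), from cows 718 and 833. The other SCE cows, at 7.97 and 7.87, lay within the range of the healthy cows. The second IL1RN probe repeated that order of cows, at 8.11 in cow 718, 7.33 in cow 833, 6.99 in cow 836 and 6.65 in cow 846 against 6.67 to 7.24 in healthy cows. The summed neutrophil markers were also highest in cows 833 and 718 (13020 and 8346, against 5771 to 8066 in the 6 other endometria), and their part in the IL1RN values was not tested. The summed monocyte and macrophage markers were highest in the same cows (28080 and 20980, against 15610 to 18100), and their part was not tested either. Without cow 718 the IL1RN difference was 0.22, and without cow 833 it was 0.47.

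IL18 was higher on average in SCE endometrium by 0.65 (1.57-fold, SE 0.34), with the smallest TREAT p of the family there (0.16, adjusted p = 1 by limma). The 2-sided exact permutation p was 0.17. The SCE cows 718, 833, 836 and 846 read 9.06, 10.46, 9.14 and 9.20, and the healthy cows 841, 850, 877 and 883 read 9.05, 8.51, 8.44 and 9.27. The difference was 0.32 without cow 833.

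The same array set the mean of several other members. It gave the highest endometrial reading of IL33 (11.98) and of IL18BP (10.96, against 8.91 to 9.57 elsewhere), and the lowest of IL1RAP (5.52, against 7.30 to 8.07 elsewhere, and the one endometrium array on which that probe was not well above background). The SCE minus healthy difference was 0.46 (SE 0.55) for IL33, 0.51 (SE 0.41) for IL18BP and -0.59 (SE 0.46) for IL1RAP. Without cow 833 these were -0.05, 0.07 and -0.08. The second IL18BP probe did not repeat the difference of the first (-0.00056, SE 0.15). The differences of these genes in endometrium were thus within the spread of the other cows, and the part of the tissue make-up of that biopsy was not tested.

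None of the differences of IL1B, IL1A and the receptors between SCE and healthy endometrium passed the test. The 4 IL1B probes gave 0.34 (SE 0.28), 0.30, 0.19 and 0.07, all with TREAT p over 0.4. IL1A gave -0.28 (SE 0.52), and the 3 IL1R1 probes gave -0.14, -0.21 and -0.26. IL1R2 gave 0.34 (SE 0.35), which came from cow 718: without her it was -0.03. With the processed signal it was 1.62 (unadjusted p = 0.0611, adjusted p = 1 by limma), and 7 of its 8 endometrial readings were not well above background.

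IL37 was the one member whose SCE and healthy endometria did not overlap, and this was not repeated by the second copy of its probe. The IL37 probe read 5.53, 5.72, 5.72 and 6.11 in SCE cows 718, 833, 836 and 846 and 5.45, 5.39, 5.47 and 5.13 in the healthy cows, a difference of 0.41 (SE 0.16, adjusted p = 1 by limma). The exact permutation p was 0.029, the smallest that 4 against 4 can give, and 0.7% of all probes stood without overlap in the same direction. None of these 8 spots was well above background. The second probe with the same 60 bases read 5.43, 5.51, 5.41 and 5.47 in the SCE cows and 5.50, 5.37, 5.52 and 5.36 in the healthy cows, a difference of 0.02 (exact permutation p = 0.66), also below the threshold for well above background on every array. Over the 8 endometrium arrays the 2 copies had r = 0.44.

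**Figure D4:**
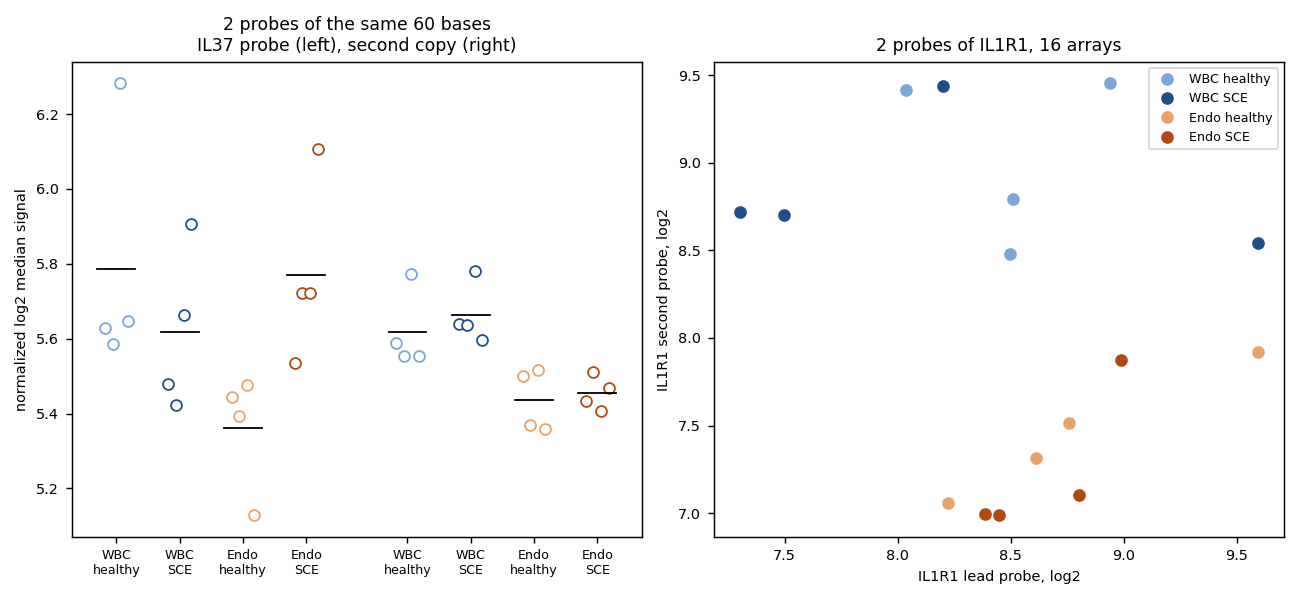
Left: normalized log2 median signal of the IL37 probe and of the second probe with the same 60 bases, 1 open point per cow in the 4 groups (none was well above background) and lines for the means of 4 cows. Right: the 2 IL1R1 probes plotted against each other over the 16 arrays. The SCE and healthy endometria are apart on the IL37 probe (5.53 to 6.11 and 5.13 to 5.47) and overlap on its copy, and the IL1R1 second probe parts the tissues while the lead probe does not.

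In WBC no difference of a member between SCE and healthy cows passed the test either. The largest differences on the lead probes were -0.35 (SE 0.44) for IL1R1 and -0.22 (SE 0.23) for IL1RN, and the smallest TREAT p was 0.357, for the second IL1RAP probe (0.32, SE 0.14, exact permutation p = 0.057). That probe read 6.90, 6.75, 6.90 and 6.54 in the SCE cows and 6.33, 6.37, 6.69 and 6.44 in the healthy cows. The lead IL1RAP probe did not repeat it (-0.04, SE 0.34). IL1B differed by 0.09 (SE 0.27), and IL1R2 by -0.05 (SE 0.45).

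Cow 833 also stood apart in blood for some members. Her WBC had the highest IL1R1 (9.59) and IL18 (9.52) and the lowest IL18BP (9.13). Without her the IL1R1 difference was -0.83 with an unadjusted TREAT p of 0.025 (adjusted p = 1 by limma), and the IL18 difference turned from 0.14 to -0.23.

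The third comparison asked whether the SCE difference itself differed between endometrium and WBC. No probe passed (0 of 21 unadjusted against 0.496% of all probes, and 0 adjusted against 0%). The smallest TREAT p was 0.0836, for the second IL1RAP probe (-0.79, SE 0.35), and the interaction of IL1RN was 0.91 (SE 0.65, adjusted p = 1 by limma). Without cow 846 the second IL1RAP probe passed unadjusted, with a p of 0.022, and without cow 833 the interaction of the lead IL1RAP probe was 0.22 in place of -0.55.

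The wider pathway was read on lists of genes chosen with earlier results of these data known. Of the 12 other family ligands and receptors 8 were on the array, of the 12 genes of processing and the inflammasome 9, and all 14 signalling genes and 16 classical targets. In endometrium none of these genes passed the unadjusted TREAT test. The share of all probes that passed was 0.453% in endometrium and 0.122% in WBC. In WBC 1 listed gene passed, CXCL8, a neutrophil-attracting chemokine, which was higher in SCE by 1.31 (11.43 ± 0.51 against 10.13 ± 1.12, SD, n = 4 each; SE 0.49, unadjusted p = 0.035, adjusted p = 1 by limma). Leaving out cow 833, 836, 846, 850 or 877 took its p over 0.05 (0.0543 to 0.0847). The other genes named below have the largest differences of a list and tissue among probes that all 4 arrays of a group of that tissue read well above background. Counting also probes that reached this in the other tissue alone would put NLRP3 (-0.30) and IL36G (-0.06) among them in endometrium, and CXCL5 (0.70) and CCL2 (0.32) in WBC.

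The classical targets were the list with the most genes above 0 in SCE endometrium, 14 of 16 with a median of 0.38, against 49.1% of all probes. Only 11 of the 16 were well above background on all 4 arrays of an endometrium group. The 14 include CCL2 (0.002) and MMP3 (0.015), and the count was not recomputed with cows left out. In WBC 8 of 16 were above 0, with a median of 0.00. The largest endometrial differences were 1.76 (SE 1.30) for PTGS2, the inducible cyclooxygenase, 0.94 (SE 0.41) for CXCL5 and -0.88 (SE 0.39) for MMP1, a collagenase. In WBC the differences named by the same rule after CXCL8 were -0.29 for SOD2, the mitochondrial superoxide dismutase, and -0.23 for LCN2, a granule protein.

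No gene of the other lists passed the unadjusted test between SCE and healthy cows in either tissue. In endometrium 4 of 8 other family members, 6 of 9 processing genes and 4 of 14 signalling genes were above 0, with medians of 0.00, 0.04 and -0.06. Caspase-1 (CASP1) differed by -0.35 (SE 0.27), the adaptor PYCARD by 0.23 and ELANE by 0.20. The kinase IRAK1 differed by -0.36 (SE 0.21), MYD88 by 0.27 and CHUK by -0.26. Of the other family members, IL36A differed by -0.09, IL1RL1 by 0.07 and SIGIRR by 0.02.

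In WBC 1 of 8 other family members, 6 of 9 processing genes and 3 of 14 signalling genes were above 0, with medians of -0.07, 0.10 and -0.08. ELANE, a neutrophil protease, differed by -0.56 (SE 0.31), MEFV by -0.26 and NLRC4 by 0.21. TOLLIP, an inhibitor of the receptor complex, differed by -0.30, MAP3K7 by -0.21 and MYD88 by -0.20. IL1RL1, the IL33 receptor, differed by 0.21, IL18RAP by -0.08 and SIGIRR by -0.06. The IL1RL1 probe was very bright, with means of 17.06 (healthy) and 17.12 (SCE) in endometrium and 17.99 and 18.21 in WBC. The lead IL1B probe had means of 14.67 and 14.75 in WBC. Whether the IL1RL1 probe reads that transcript alone was not tested.

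Between the tissues the genes of processing and the inflammasome were mostly higher in WBC. All but 1 of the 9 processing genes were higher in WBC (adjusted TREAT by limma), with endometrium minus WBC differences of -4.54 (SE 0.16) for CASP1, -4.52 for MEFV and -3.95 for PYCARD, and none was higher in endometrium. Over all probes 31.2% were higher in WBC and 22.7% in endometrium. Of the signalling genes 7 were higher in WBC and 1 in endometrium, of the other family members 5 in WBC and none in endometrium, and of the classical targets 4 in WBC and 6 in endometrium. With each tissue normalized separately the split of the signalling genes turned, to 3 higher in WBC and 5 in endometrium, while 7 of the processing genes and 4 of the other family members were still higher in WBC and none in endometrium (10.8% and 41.3% of all probes).

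Markers of other cells differed along with the comparison in both tissues. In endometrium S100A8, a neutrophil calgranulin, was higher in SCE by 1.60 (SE 0.61, unadjusted p = 0.0359, adjusted p = 1 by limma), and the summed neutrophil list spanned 6620 to 13020 in SCE and 5771 to 8066 in healthy endometrium, with CXCR1 well above background on 1 of 8 arrays. The 2 plasma cell markers summed to 47490 in SCE cow 718, 6207 in cow 836 and 3319 in cow 833, against 787.4 in cow 846 and 796.3 to 1938 in the healthy cows. All 6 stromal markers had a mean below that of the healthy cows in SCE endometrium (median difference -0.43), and no plasma cell or stromal marker passed the unadjusted test. The p of S100A8 was over 0.05 without cow 841, 850 or 883 (0.0501 to 0.0857). In WBC the summed list of 6 monocyte and macrophage markers spanned 56180 to 63670 in SCE and 37700 to 51380 in healthy cows. The brightest of them, LYZ, weighs most in that sum (mean log2 15.17 in SCE and 14.74 in healthy WBC). CD14 lacked a value in part of the healthy WBC, which lowers the healthy sums. Taken singly, 5 of the 6 had a difference above 0, and CD68 went the other way (-0.37). CSF1R was higher by 0.64 (SE 0.17, unadjusted p = 0.0241, adjusted p = 1 by limma). Its p was 0.068 without cow 841, 0.0591 without cow 846, 0.102 for the mean of its probes and 0.108 in 1 fit of all 16 arrays. The part of these cells in the values of the family was not tested.

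The genes most like each member were those with the highest Pearson correlation over the 8 arrays of a tissue, among 10691 named genes well above background in endometrium and 10587 in WBC. With 8 arrays and so many genes, high values are found for every member. In endometrium IL1RN was closest to KCNK12, RASAL3 and SLAMF8 (r 0.93 to 0.95), IL33 to AHR, FAR2 and CDH13 (0.98 to 0.99), IL18BP to GPD1, TSHR and MICU3 (0.991 to 0.997), and IL18 to IYD, ESRRA and PON2 (0.96 to 0.98). IL1A was closest to FAM89B, SNX10 and BTBD8 (0.91 to 0.93), IL1B to CDK16, LAMB2 and PLP2 (0.95 to 0.96), and IL1R1 to CCDC82, BLOC1S5 and NFKB2 (0.96 to 0.98). Without cow 833 the values of IL18 fell to between 0.84 and 0.93, and those of IL1RN were 0.92 to 0.94.

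In WBC IL1RN was closest to TBC1D9B, to CXCR1, a neutrophil chemokine receptor, and to SDS (r 0.93 to 0.94), and IL1R2 to CD101, SLC20A1 and DAGLB (0.87 to 0.93). IL1B was closest to ORC5, SLC31A2 and RSRC1 (0.97 to 0.98), IL18 to TMF1, CLPX and MICU2 (0.97 to 0.99), IL18BP to IZUMO4, NCF1 and SNX30 (0.98 to 0.99), and IL1R1 to DCAF12, ZNF330 and ANKRA2 (0.97).

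Correlations between members changed when cow 833 was left out, and no difference between correlations was tested. In WBC the lead probes of IL1B and IL1RN had r = 0.43, or 0.91 without cow 833, and those of IL1RN and IL1R2 had r = 0.65, or 0.75 without her. In endometrium IL1B and IL1RN had r = 0.45, or 0.26 without her, and IL33 and IL1R1 had r = 0.71, or 0.91 without her. IL18 and IL18BP had r = 0.76 in endometrium, which became -0.34 without her, and -0.74 in WBC, which became -0.48. All are over 8 arrays of SCE and healthy cows together, or 7 without cow 833, on the same slide and scaling, and are given as a description.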

How the data were processed

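RNA of 16 samples, 1 of WBC and 1 of endometrium for each of 8 cows, was hybridised to 1-colour (Cy3) Agilent arrays. The deposited scanner intensity values were made by the authors with Agilent Feature Extraction 10.10.1.1 (median signal, local background and processed signal per spot). The deposited table of normalized intensity values holds the authors' quantile-normalized medians and served as an alternative. The other deposited columns used were the scanner's 0 or 1 marks.

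Control spots (1319) and outlier spots (190 to 465 of 52689 per array) were left out, and no member spot was an outlier or saturated. The log2 of the deposited median signal, without background subtraction, was quantile-normalized over the 16 arrays and averaged per probe. SCE was tested within each tissue on 8 arrays, and tissue and interaction in 1 model of 4 groups on 16, with limma 3.58.1 (TREAT, fold 1.2, 2-sided, Benjamini-Hochberg over all probes) in R 4.3.3, checked on simulated data. Exact permutation tests were 2-sided. The number of arrays limits the precision. Gene names followed the array, updated through accession or symbol (26517 probes by accession, 6173 by symbol, 174 by an older symbol, 13751 left as on the array).

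The members and lists were chosen with earlier results of these data known. The text names all 10 members, pathway genes past the unadjusted test or the 3 with the largest difference per list and tissue among probes bright in that tissue, and the 3 genes most alike. S100A8, CSF1R and CXCR1 are markers of fixed lists, named after their values were seen. Both samples of a cow come from the same animal, so the cow pairs them between tissues. The correlation of paired deviations was -0.329 to 0.141 over 23893 probes. The alternatives were other normalizations, background correction, gene means, bright probes, no TREAT threshold, another prior, slide row or cow as a block, members by accession (which added 0 probes), 1 fit of all arrays and leaving out each cow. The copy of the IL37 probe was added after seeing the data. Cows are separate animals, and the tissue contrast is confounded with the slide.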

Additional observations from a re-analysis of the deposited data

Results flagged for a closer look

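In 6 of 84 sets of 4 cows (21 probes in 4 groups), 1 cow lay so far from the other 3 that the gap, divided by the range, was over Dixon's 95% critical value, and chance gives about 1 in 20 such sets. Cow 833 accounts for 4 of the 6. On her endometrium array IL18 was at 10.46 (next 9.20), the second IL1R1 probe at 7.87 (next 7.11) and the lead IL1RAP probe at 5.52 (next 7.52), and in her WBC IL18BP was at 9.13 (next 9.95). Her endometrium array is the one with the lowest raw signal. The others were IL1RN in WBC of SCE cow 718, at 15.14 (next 14.55), and IL37 in WBC of healthy cow 877, at 6.28 (next 5.65), on a probe not well above background. No difference of an SCE effect between the tissues passed its test.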

How the results depend on the processing

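The tissue calls of 5 member genes held throughout. IL1B, IL1RN and IL1R2 were higher in WBC, and IL33 and IL1A higher in endometrium, under each of 19 alternatives. The number of genes higher in endometrium was 2, but 6 with each tissue normalized separately, 3 with the processed signal scaled to the 75th percentile, 3 without the TREAT threshold, 3 with the replicate block (cow as a block, which added IL18), and 2 to 4 with 1 cow left out. The mean of the 3 IL1R1 probes gave -0.65 in place of 0.40 for the lead probe. The median of all probes, endometrium minus WBC, was -0.40 with the 75th percentile scaling.

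For SCE in endometrium the count of members past an unadjusted p of 0.05 was 0, or 1 (IL37) without the TREAT threshold, and 0 with any cow left out. In WBC it was 0, or 1 (IL1RAP) without the threshold and 0 to 1 with a cow left out, the 1 being IL1R1 without cow 833. For the interaction it was 0, or 1 (IL1RAP) with the processed signal, 2 (IL1RAP and IL37) without the threshold, and 0 to 1 with a cow left out, the 1 being IL1RAP without cow 846. No member passed after adjustment under any alternative for these 3 comparisons. Among differences that passed under neither setting, the sign turned in 5 of 209 recomputed values in endometrium, 20 of 228 in WBC and 6 of 189 for the interaction. S100A8 in endometrium stayed at an unadjusted p of 0.05 or less in 17 of 20 settings, CSF1R in WBC in 16 and CXCL8 in WBC in 15. The signal limits what can be said of IL37 and of the second IL1A probe, which never rose well above background.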
